A study of Saccharomyces cerevisiae with 8 samples.

Results

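Glucose enters yeast cells through a family of hexose transporters, and the genes of 8 of these transporters (HXT1 to HXT7 and HXT10) and of 2 glucose sensors of the plasma membrane (SNF3 and RGT2) were examined allele by allele. They were found by an exact match of their names in the transcript annotation. Of the 10 genes, 7 had an annotation row and both allele rows in the count table, and all 7 were among the 6705 transcripts tested, out of 7263 with both rows. No row carried the name HXT6, HXT7 or HXT10, so their RNA was not analysed here. RNA came from 2 cultures (A and B) of a diploid Saccharomyces cerevisiae hybrid of the laboratory strain S96 and the strain SK1, and from 2 pools (A and B) of haploid spores of this hybrid. Genomic DNA of all 4 was sequenced as well. The spores had been selected for a single mating type, and hybrids and pools alike grew in YPD, a rich medium with glucose. In a hybrid both alleles share one cell, so a difference between them measures the cis effect. In a pool each cell holds 1 allele, so the ratio there also holds local trans effects, those inherited together with the gene.

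Rgt2 and Snf3 resemble the transporters but signal instead of carrying sugar, Rgt2 as the sensor of high and Snf3 as the sensor of low glucose. Their signal leads to the loss of Mth1 and Std1, the partners of the repressor Rgt1, and so frees the HXT promoters. Hxt1 and Hxt3 are low-affinity carriers made when glucose is plentiful, Hxt2, Hxt4, Hxt6 and Hxt7 have higher affinity and serve low glucose, and Hxt5 is known for slow growth and starvation. HXT10 is a family member with little expression under usual conditions.

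Strain-specific read pairs on transcripts numbered 45279970 in hybrid A, 48120351 in hybrid B, 52182840 in spore pool A and, in pool B, 52572032. Each library was run in lanes 6, 7 and 8. Lanes 6 and 7 agreed within sampling noise in all 4 libraries, with a mean chi-square per transcript of 1.01 to 1.05, whereas lane 8 stood apart from them with 572 to 733. What lane 8 held that the others did not is not given in the sources used here, so values within lanes stand beside the results. The paper calls A and B biological replicates without saying how separately the cultures were grown. The p-values measure only the spread between these libraries. As a check of the labels, genes known to depend on cell type were read under the rule for calls given below. Of 7 listed genes specific to mating type a, 6 were tested and 5 were called higher in the pools. Of 9 listed haploid-specific genes, 4 were tested and all 4 were called higher. Of 4 alpha-specific genes 0 were called, and the share over all transcripts was 1.13%. AGA2, a subunit of the a-agglutinin, stood at 1.78 and 3.37 CPM (counts scaled to a common library size) in the hybrids, against 546 and 300 in the pools.

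The regulatory sequence is shown first, because HXT1 and HXT3, on which the results turn, also stand out there. The motif recognised by Rgt1 was searched as CGGANNA on both strands within 1000 bases upstream of each start codon, overlapping matches included, in genome build R64 of RefSeq. HXT3 held 9 matches, the highest number among 5996 protein-coding genes, and HXT1 held 8, the second highest. HXT5 held 4, HXT2, HXT4 and HXT6 held 3 each, and HXT7 held 2. HXT10, SNF3 and RGT2 held 0. Among all genes 66.5% held at least 1 match and the mean was 1.15, so the presence of a match in a hexose gene is not unusual by itself. Of the genes, 11.2% held 3 or more and 3.49% held 4 or more. The runs below come from the window of fixed length with the most matches upstream of the annotated start of the transcript. Each is read 5′ to 3′ on the strand of the gene, with the matches in capitals:
HXT1 (chrVIII:293350-293592, minus strand): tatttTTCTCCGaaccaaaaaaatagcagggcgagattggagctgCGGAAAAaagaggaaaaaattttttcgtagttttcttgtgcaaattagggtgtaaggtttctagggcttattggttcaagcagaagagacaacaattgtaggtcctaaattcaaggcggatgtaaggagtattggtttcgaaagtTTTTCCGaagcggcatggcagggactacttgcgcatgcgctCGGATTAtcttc
HXT3 (chrIV:1164968-1165203, minus strand): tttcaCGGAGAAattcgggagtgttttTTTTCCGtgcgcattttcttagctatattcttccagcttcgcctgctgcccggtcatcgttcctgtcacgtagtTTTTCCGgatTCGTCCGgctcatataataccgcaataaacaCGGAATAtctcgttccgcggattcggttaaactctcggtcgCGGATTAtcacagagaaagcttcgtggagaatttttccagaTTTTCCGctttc
The HXT1 run spans 243 bases and holds 4 of the 8 matches, from 967 to 725 bases before the start codon. The other matches of HXT1 begin at -484, -454, -399 and -231 from the start codon, so its matches do not crowd in a single place. The HXT3 run spans 236 bases and holds 7 of the 9 matches, from 543 to 308 bases before the start codon. Across 1000 bases upstream, the variable positions in the deposited DNA data of hybrid A numbered 4 at HXT1 and 6 at HXT3. At each of the 10 genes, 0 such positions lay inside a match. This was fixed in advance at HXT10, SNF3 and RGT2, without a match, and at HXT7, without a variable position there. Matches were sought in R64 alone, so a match present only in SK1 could not be seen. A match is a description of letters, and binding was not measured.

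**Figure D1:**
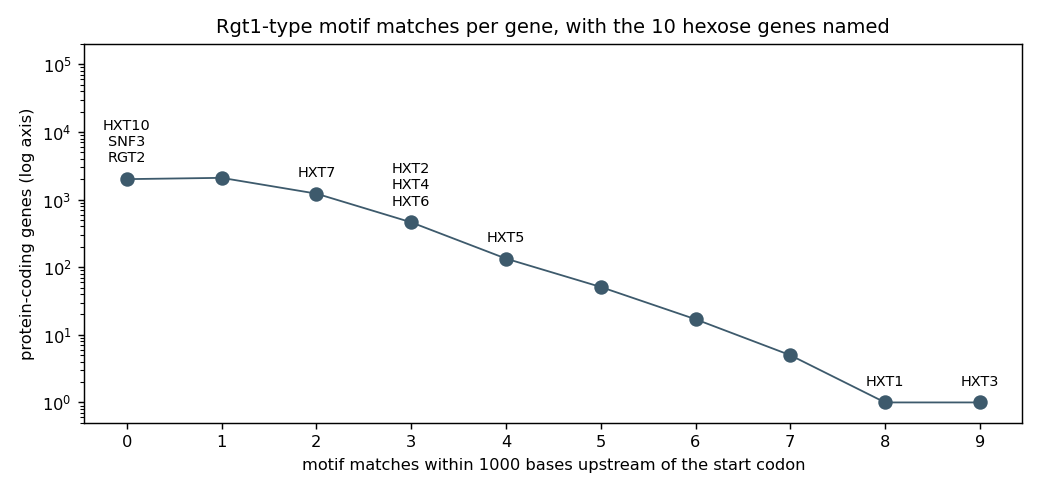
Number of protein-coding genes (vertical log axis) against the number of Rgt1-type motif matches in the 1000 bases before the start codon (horizontal axis), with the 10 hexose genes named above their point. HXT3 with 9 and HXT1 with 8 matches lie at the far right, and SNF3, RGT2 and HXT10 at 0.

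The coding sequences bear on how well reads can be told apart. HXT6 and HXT7 differ at 3 of 1713 bases and share an identical run of 1631 bases, far longer than a read. HXT3 shares a run of 149 bases with HXT6, and HXT1 a run of 119 bases with HXT5, 75.2% identical over their whole coding sequence. Read pairs that lie wholly inside such runs cannot be assigned to 1 copy. HXT4 shares at most 78 bases with another of the 10 genes, HXT2 at most 36, and SNF3 and RGT2 at most 21. HXT1, HXT4 and HXT5 lie next to each other on the minus strand of chromosome VIII, the transcripts reaching from 290821 to 292949, from 287021 to 288885 and from 294477 to 296781 in the annotation. HXT3 (1162785 to 1164689, minus strand), SNF3 (111369 to 114273) and RGT2 (213065 to 215753) lie on chromosome IV, and HXT2 (288049 to 289817) on chromosome XIII. The annotation does not name its build, and each of the 7 transcripts holds the whole coding sequence of its gene in R64.

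Within the hybrids the 7 genes fell into an abundant and a scarce set. Levels were compared as CPM per kb of transcript over both alleles, counting only read pairs that told the alleles apart, so a gene with few variants is undercounted. In bulk RNA, fewer cells with a transcript and less of it per cell cannot be told apart. HXT3 had the highest counted level, at 280 ± 33.1 CPM per kb (SD, n = 2), followed by HXT1 at 194 ± 8.97 and HXT2 at 98.3 ± 8.78. RGT2 followed at 12.3 ± 0.993, then HXT4 at 5.25 ± 0.905, SNF3 at 4.29 ± 1.22 and HXT5 at 3.21 ± 1.61. The values of SNF3 overlapped those of HXT4 and of HXT5, so its place between them is within the spread. HXT4 and HXT5 did not overlap, with 4.61 and 5.89 against 4.35 and 2.07 in hybrids A and B. In the pools HXT3 stood at 181 ± 10.1 and HXT1 at 177 ± 35.7, which overlapped, HXT2 at 116 ± 5.79, RGT2 at 14.7 ± 0.125, SNF3 at 6.22 ± 1.72, HXT4 at 5.13 ± 2.50 and HXT5 at 2.42 ± 0.798. The number of variants between the strains in a transcript ran from 1.86 per kb in RGT2 to 8.92 per kb in HXT3. It was 6.11 per kb in HXT1 and 4.52 per kb in HXT2. The order of HXT3, HXT1 and HXT2 in the hybrids was thus also that of their variants. Over all 7 genes the orders differed, as the scarce genes HXT4, SNF3 and HXT5 had 6.97, 6.54 and 4.77 per kb. The part of variant number in the levels was not tested.

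**Figure D2:**
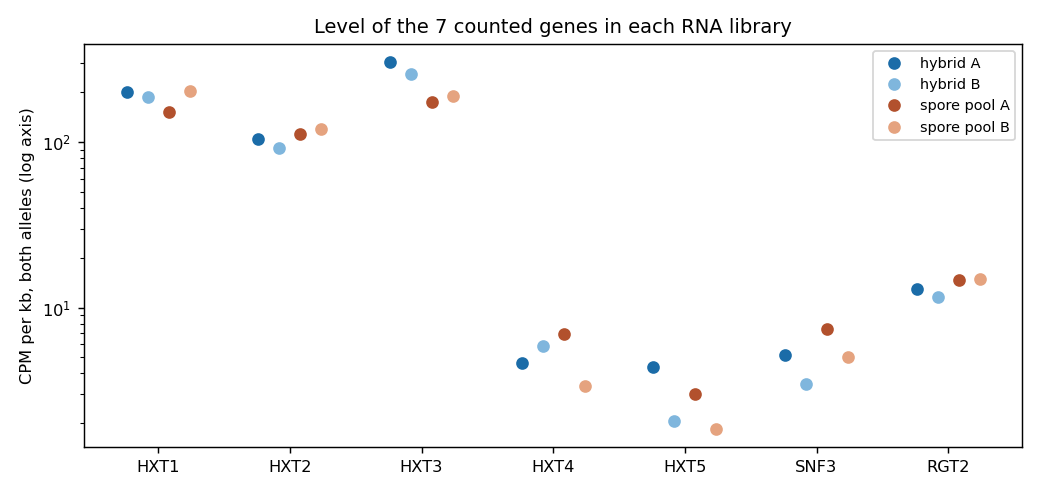
Level of the 7 counted genes in each RNA library, in CPM per kb over both alleles (vertical log axis), 1 point per library. HXT1, HXT2 and HXT3 lie between 92.0 and 303 in every library, and HXT4, HXT5 and SNF3 between 1.86 and 7.44.

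HXT1 and HXT3 had allelic differences in opposite directions in the hybrids. The SK1 allele of HXT1 gave fewer reads than the S96 allele, and the SK1 allele of HXT3 gave more. Counts here were divided by the size factor of the library and by the allele frequency. At HXT1, hybrid A had 8502 SK1 and 12675 S96 corrected read pairs, and hybrid B had 8420 and 11419. In both hybrids the SK1 allele was the lower one, and the lowest S96 value lay above the highest SK1 value. The cis effect was -0.51 ± 0.11 (log2 SK1 over S96, standard error), a 1.42-fold difference for which edgeR gave an adjusted p of 0.00617. At HXT3, hybrid A had 16767 SK1 and 11872 S96 corrected read pairs, and hybrid B had 13664 and 10553. In both hybrids the SK1 allele was the higher one and the alleles did not overlap. The cis effect was 0.44 ± 0.10 on the log2 scale, a 1.35-fold difference with an adjusted p of 0.0139 in edgeR.

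A transcript was called where its false discovery rate was under 0.2 and its fold above 1.5. Under this rule 0 of the 7 genes were called for a cis effect, against 11.6% of the 6705 transcripts. At any fold, 2 of 7 passed the false discovery rate, HXT1 and HXT3, against 17.0% of all transcripts. The count at an unadjusted p under 0.05 was also 2, against 1320 of all 6705 transcripts. DESeq2 called 0 of the 7, against 989 of all transcripts, and passed 2 at any fold. The differences at HXT1 and HXT3 were therefore smaller than the fold that the calls require. By lanes, HXT1 kept its direction and its size was above the fold in lanes 6 and 7, with -0.72 and an adjusted p of 0.0101 in edgeR, against -0.44 and 0.0747 in lane 8. HXT3 had 0.58 and an adjusted p of 0.0143 in lane 8, but 0.18 and 0.596 in lanes 6 and 7, so its false discovery rate was met only in the lane with most reads. HXT3 also missed it without hybrid A, with 0.37 and an adjusted p of 0.272 in edgeR, while HXT1 then had -0.44 and 0.173. With each pool corrected by its own DNA, or without library terms in the model, both genes missed it at nearly the same log2 effects, with adjusted p of 0.662 and 0.805 in the first fit and 0.448 and 0.492 in the second (edgeR, HXT1 and HXT3).

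DNA reads and antisense transcripts were read beside these ratios. The DNA columns carry no names, and the first was taken as S288c from the mapping bias. A turned assignment would turn every DNA share and sign below. It would also turn the correction of the pool counts for allele frequency, and so change the pool ratios and local trans effects. In DNA of hybrid A, where both alleles are present once, SK1 reads made up 38.6% of 1306 reads over 13 variable positions of HXT1 (exact 95% binomial interval 35.9 to 41.3%). Such intervals cover the error of counting alone, as PCR copies are not separate molecules. Reads were summed over positions, so a read that covers several positions counts more than once and the intervals are then too narrow. The share was 44.2% (41.0 to 47.4%) in hybrid B and 39.0% (37.0 to 41.0%) in spore pool A. The median over 2270 transcripts with at least 10 such positions was 48.3%, 48.6% and 48.2%, and the 5th to 95th percentiles were 41.2 to 54.5%, 42.2 to 54.4% and 40.3 to 55.7%. HXT1 thus lay below this range in hybrid A and spore pool A and inside it in hybrid B. SK1 reads were the fewer at 7 of the 13 positions in each hybrid, and at all 13 in spore pool A. Smoothed over a window of 28000 bp around HXT1, the SK1 share was 46.9% in hybrid A and 47.8% in hybrid B. In spore pool B only 10 reads fell on HXT1, with an SK1 share of 80.0% (44.4 to 97.5%). As log2 ratios the DNA values of HXT1 were -0.67 in hybrid A and -0.34 in hybrid B, of the same sign as the RNA values of -0.58 and -0.44 under this assignment. At HXT3 the SK1 share of DNA reads was 44.3% (41.8 to 46.8%) in hybrid A and 43.0% (40.1 to 45.9%) in hybrid B, within the range over transcripts and, under this assignment, on the other side of 50% from the RNA of the same cultures. RNA reads were mapped to both genomes together, and the paper reports no mapping bias like that of the DNA in the hybrid RNA counts. The part of uneven read mapping in the RNA ratio of HXT1 itself was not tested. Opposite to HXT1, the noncoding transcript SUT163 covers 79.3% of it and had a cis effect of -0.71 ± 0.39 (adjusted p of 0.333 in edgeR). Opposite to HXT3, SUT069 covers all of it and had 0.07 ± 0.17 (adjusted p of 0.893 in edgeR). SUT727 covers 93.7% of HXT2 and SUT164 covers 74.8% of HXT5 in the same way, and none of these 4 antisense transcripts was called in any of the 4 comparisons. The libraries were made to keep the strand, while the strand setting of the counting is not given in the sources used here.

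**Figure D3:**
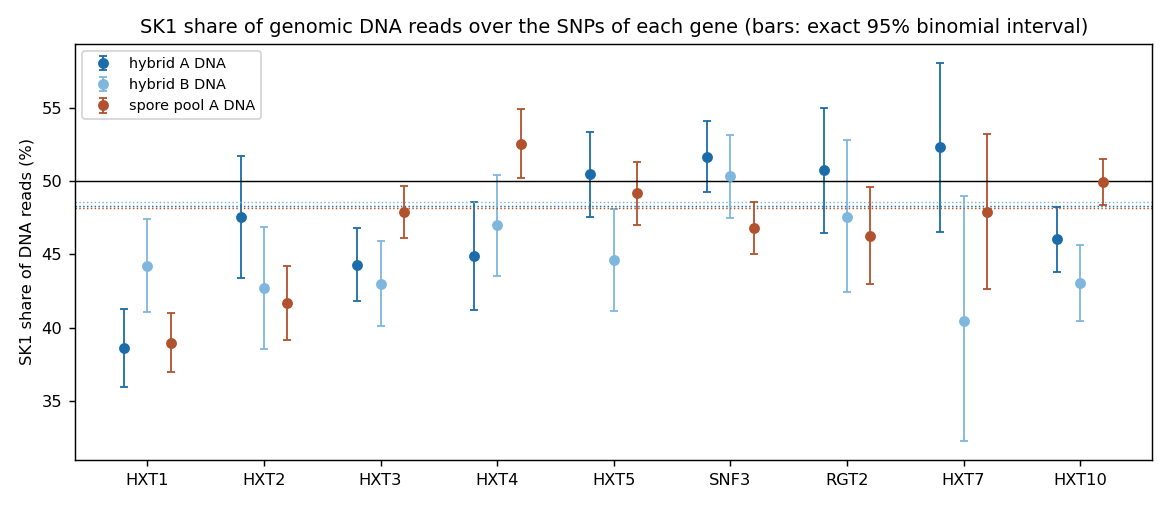
SK1 share of genomic DNA reads (vertical axis, %) summed over the variable positions of each gene, for hybrids A and B and spore pool A, with exact 95% binomial intervals for counting error only. The intervals take each read at each position as separate. Dotted lines mark the median over 2270 transcripts in each library, near 48%. HXT1 lies lowest in hybrid A and spore pool A, at 38.6% and 39.0%.

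HXT2, RGT2, HXT4, SNF3 and HXT5 gave cis effects that could not be told from 0. HXT2 had 4605 SK1 and 4550 S96 corrected read pairs in hybrid A and 3601 and 4465 in hybrid B, so its SK1 allele was level in one culture and lower in the other. Its cis effect was -0.15 ± 0.15 on the log2 scale. RGT2 had 923 SK1 and 808 S96 pairs in hybrid A and 849 and 696 in hybrid B, SK1 being higher in both, with an effect of 0.24 ± 0.31. HXT4 had 176 and 249 in hybrid A and 205 and 339 in hybrid B, SK1 being lower in both, with -0.61 ± 0.65. SNF3 had 286 and 456 in hybrid A against 258 and 236 in hybrid B, with -0.27 ± 0.50. Adjusted p-values of these genes in edgeR ran from 0.663 for HXT2 to 0.961 for HXT5. HXT5 had 0.17 ± 0.98. With standard errors of 0.50 to 0.98, a cis effect of the size seen at HXT1 was not detectable at the depth of SNF3, HXT4 and HXT5.

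HXT5 was the least settled of the genes. Hybrid A had 161 SK1 and 335 S96 corrected read pairs, but hybrid B had 171 and 64.5. The log2 ratio was thus -1.05 in hybrid A and 1.41 in hybrid B, and the 2 cultures pointed in opposite directions. Within each library the lanes agreed on the side. The ratio was -1.02 in lanes 6 and 7 and -1.08 in lane 8 of hybrid A, and 1.27 and 1.52 in hybrid B. In spore pool A it was 2.38 and 3.13, and in spore pool B 0.45 and 1.30. SNF3 and HXT4 differed most between lanes. In spore pool A the ratio of SNF3 was -1.84 in lanes 6 and 7 and 0.12 in lane 8, and that of HXT4 was -2.10 and -0.22. The level of HXT4 in hybrid B also differed, with 26.9 CPM in lanes 6 and 7 and 1.46 in lane 8.

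**Figure D4:**
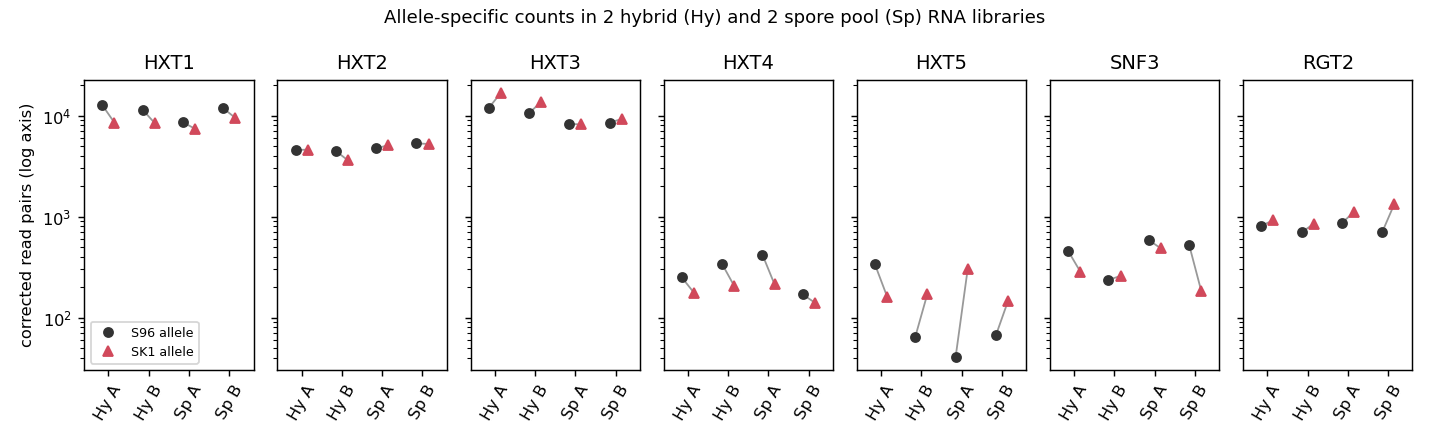
Corrected read pairs of the S96 allele (circles) and the SK1 allele (triangles) on a log axis, in hybrids A and B (Hy) and spore pools A and B (Sp), 1 panel per gene. The SK1 allele of HXT1 lies below the S96 allele in all 4 libraries, and HXT5 lies with SK1 below in hybrid A only.

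In the spore pools the allelic ratio of HXT1 had the sign seen in the hybrids, and that of HXT3 lay near 0. At HXT1, spore pool A had 7402 SK1 and 8580 S96 corrected read pairs and spore pool B had 9475 and 11813. SK1 was lower in both, and the log2 ratio was -0.27 ± 0.11 with an adjusted p of 0.177 in edgeR. This p moved past 0.2 whichever library was left out, to between 0.215 and 0.527. HXT3 had 8175 and 8277 in spore pool A, against 9246 and 8540 in pool B. The alleles overlapped, and the ratio was 0.05 ± 0.10. HXT5 had 301 SK1 and 40.6 S96 pairs in spore pool A and 146 and 66.7 in spore pool B, SK1 being higher in both, with a ratio of 2.01 ± 0.97 and an adjusted p of 0.273 in edgeR. Without hybrid B this p was 0.163, and it was 0.881 without spore pool A. RGT2 had 1111 and 862 in spore pool A, against 1330 and 701 in pool B, with 0.64 ± 0.31 (adjusted p of 0.269 in edgeR). SNF3 had 484 and 584 in spore pool A, against 185 and 528 in pool B, with -0.89 ± 0.51 (adjusted p of 0.381 in edgeR). HXT2 and HXT4 had 0.04 ± 0.15 and -0.63 ± 0.65.

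For the ratio in the pools 0 of 7 genes were called, against 10.2% of all transcripts, and 1, HXT1, passed the false discovery rate at any fold, against 15.8%. The count at an unadjusted p under 0.05 was 1, against 1300 of all 6705 transcripts. DESeq2 called 1, HXT5, and no alternative called more than 1018 of all transcripts. The pools were corrected with the DNA of spore pool A, in which the smoothed SK1 frequency at the 7 genes ran from 45.5% at RGT2 to 50.6% at HXT3. DNA of spore pool B was shallow, with 10355 variable positions read against 64272 in spore pool A, and its smoothed frequency was 15.5% at SNF3, 18.3% at RGT2 and 17.9% at HXT2. Corrected with that DNA, the pool ratio of SNF3 turned from -0.89 to 0.30 on the log2 scale, that of HXT2 moved from 0.04 to 1.13 and that of RGT2 from 0.64 to 1.60. The local trans effects moved with them, from 0.19 to 1.28 at HXT2 and from 0.41 to 1.36 at RGT2, and none of the 3 genes passed the false discovery rate.

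**Figure D5:**
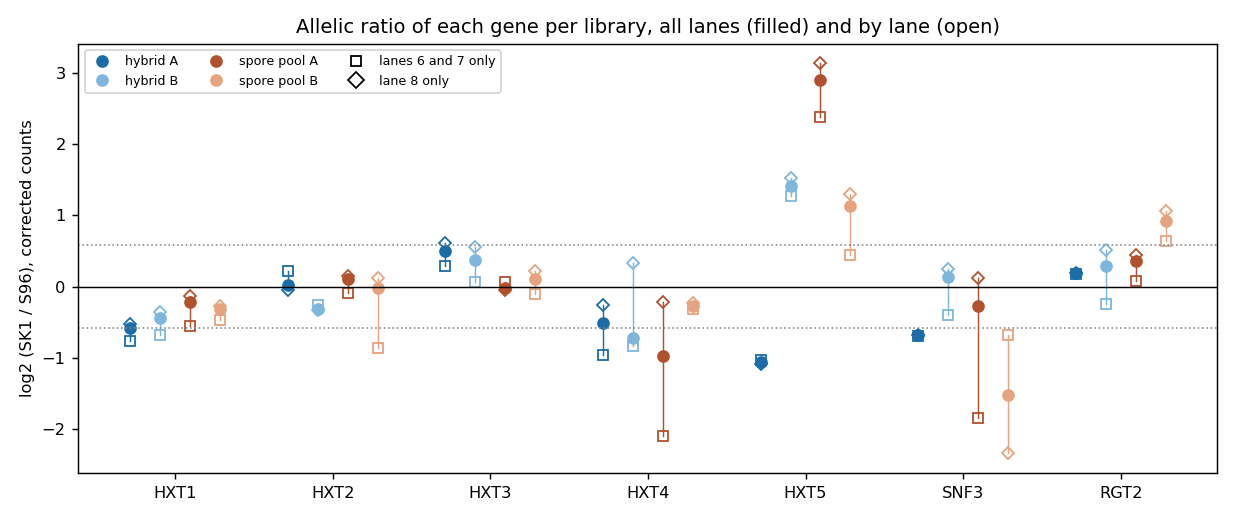
Log2 ratio of SK1 over S96 corrected counts (vertical axis) for each gene and library, over all lanes (filled circles), in lanes 6 and 7 (open squares) and in lane 8 (open diamonds). Dotted lines mark a 1.5-fold difference. HXT1 lies below 0 in every library and lane set, HXT3 above 0 in both hybrids, and HXT5 is spread from -1.08 to 3.13.

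The local trans effect, the pool ratio minus the hybrid ratio, addresses whether a gene's own locus acts on its expression in trans. It was farthest from 0 relative to its error at HXT3, with -0.39 ± 0.15 on the log2 scale, and the adjusted p was 0.713 in edgeR. It was -0.20 in lanes 6 and 7 and -0.50 in lane 8. At HXT1 the local trans effect was 0.24 ± 0.15, toward equal alleles in the pools, with an adjusted p of 0.909 in edgeR. HXT5 had 1.84 ± 1.37, SNF3 -0.61 ± 0.72, RGT2 0.41 ± 0.44, HXT2 0.19 ± 0.21 and HXT4 -0.01 ± 0.92. Of the 7 genes, 0 were called and 0 passed the false discovery rate at any fold, against 0.164% and 0.179% of all transcripts. The count at an unadjusted p under 0.05 was 1, against 385 of all 6705 transcripts, and DESeq2 called 0, against 57.

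Over both alleles together, none of the 7 genes was called between pools and hybrids by edgeR, and HXT3, a low-affinity carrier, came closest. HXT3 stood at 578 CPM in hybrid A and 489 in hybrid B, against 332 in spore pool A and, in pool B, 359. The groups did not overlap. The difference was -0.63 ± 0.23 (log2 pool over hybrid), 1.54-fold, with an adjusted p of 0.447 in edgeR. It was -0.66 in lanes 6 and 7 and -0.62 in lane 8. Left out in turn, spore pool A gave -0.56 with an adjusted p of 0.0191 in edgeR and spore pool B gave -0.68 with 0.00268, the lone pool being assumed to vary like the hybrids, but these fits called 783 and 880 of all transcripts against 76. Without hybrid A it was -0.50 and without hybrid B -0.73, with adjusted p of 0.999 and 1.00 in edgeR. HXT1 stood at 427 and 400 CPM in the hybrids and at 323 and 431 in the pools, which overlapped, with -0.14 ± 0.24. HXT2 stood at 185 and 163 in the hybrids and 198 and 213 in the pools, without overlap, with 0.24 ± 0.23. RGT2 stood at 35.0 and 31.2 in the hybrids and 39.4 and 39.9 in the pools, also without overlap, with 0.26 ± 0.29. SNF3 had 0.53 ± 0.42, HXT4 -0.03 ± 0.53 and HXT5 -0.41 ± 0.64. Of the 7 genes 0 were called and 0 passed at any fold, against 1.13% of all transcripts under either rule. The count at an unadjusted p under 0.05 was 1, against 543 of all 6705 transcripts. DESeq2 called 1, against 261 of all transcripts, and in each case the gene was HXT3. SUT069, opposite to HXT3, had -1.11 ± 0.30 with an adjusted p of 0.216 in edgeR.

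Genes of stress and stationary phase and of ethanol and acetate use are known to change with the glucose supply, and some were higher in the pools. Of 11 measured stress and stationary phase genes 4 were called higher in the pools and 0 lower, against 1.13% of all transcripts called in either direction, and the median was 1.05 (log2) against 0.0087 over all transcripts. HSP12, a small heat shock protein of the membrane, stood at 16.1 and 14.1 CPM in the hybrids and 95.2 and 111 in the pools. The others were HSP26, SPI1 and DDR2. Of 13 measured genes of ethanol and acetate use 1 was called higher, the peroxisomal citrate synthase gene CIT2 with 13.6 and 6.79 CPM in the hybrids and 43.1 and 29.5 in the pools, and 0 lower, with a median of 0.86 and the same 1.13% of all transcripts called. Summed over each list, the stress genes stood at 353 and 425 CPM in the hybrids, against 622 and 687 in the pools. The ethanol and acetate genes stood at 401 and 460, against 372 and 464, which overlapped. In that list MDH2 (-0.47 ± 0.25) and ACH1 (-0.20 ± 0.47) had negative log2 effects, and all other measured genes had positive ones. Both lists were chosen with earlier results of these data known. HXT3 was lower in both pools without being called by edgeR, and a link to these genes was not tested.

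In the pathways upstream of the transporters, 3 genes were called for a cis effect, shares of both lists near the 11.6% of all transcripts. Of 7 measured genes of the sensing branch that ends at Rgt1, 1 was called for a cis effect, CYC8, part of the corepressor that Rgt1 recruits. CYC8 had 1784 SK1 and 5262 S96 read pairs in hybrid A and 2025 and 7213 in hybrid B, SK1 being lower in both, with a cis effect of -1.70 ± 0.18 and a pool ratio of -1.95 ± 0.18 (adjusted p of 4.8e-06 and 1.3e-06 in edgeR). Of 14 measured genes of the glucose repression branch 2 were called. MIG1, the repressor that acts at high glucose, had 2150 SK1 and 1286 S96 pairs in hybrid A and 2377 and 1326 in hybrid B, with a cis effect of 0.79 ± 0.21 and a pool ratio of 1.24 ± 0.21. SIP1, a subunit of the Snf1 kinase, had -0.98 ± 0.22 and -0.86 ± 0.22. HXK2, the main hexokinase, passed the false discovery rate below the fold, with a cis effect of -0.48 ± 0.12 (adjusted p of 0.0126 in edgeR). In total expression 0 genes of either branch were called. HXK2 stood at 549 and 324 CPM in the hybrids and 264 and 276 in the pools, and MTH1 at 18.5 and 19.2 in the hybrids and 9.12 and 9.33 in the pools, both without overlap, with adjusted p of 0.500 and 0.507 in edgeR. STD1 stood at 73.8 and 95.5 in the hybrids and at 115 and 67.8 in the pools, which overlapped. RGT1 was not among the transcripts tested. Of the 10 other family members searched, 2 were measured, HXT8 and GAL2, and HXT8 was called for a cis effect of -2.87 ± 1.01 that rested on 140 SK1 and 272 S96 pairs in hybrid A and 13 and 423 in hybrid B.

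For the 3 genes without RNA counts, DNA reads were at hand. The coding sequence of HXT10 on chromosome VI (112345 to 113985 in R64) held 18 variable positions, with an SK1 share of 46.0% in hybrid A, 43.0% in hybrid B and 49.9% in spore pool A. HXT7 held 3 positions, with 52.3%, 40.4% and 47.9% and intervals as wide as 32.3 to 49.0%. HXT6 held 0. Whether the low numbers at HXT6 and HXT7 come from few variants or from reads that fit both copies was not tested.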

How the data were processed

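RNA and DNA of 2 hybrid cultures and 2 spore pools were analysed. As deposited by the authors, the RNA tables hold unnormalized counts of read pairs unique to 1 strain, by transcript, allele and lane, mapped with GSNAP and counted with HTSeq (0.5.4p5) per the submitters' processing notes. DNA values are counts of reads per variable position and allele, deposited by the authors on R64. The DNA columns are unnamed. The first was taken as S288c from the mapping bias in the methods, so the direction of the DNA shares and of the pool correction is not independent.

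Lanes were summed, and 5 summary lines, which held 26.8 to 36.4% of pairs outside features, were left out. No sample column was left unused. TMM size factors and quasi-likelihood tests came from edgeR 4.0.16 in R 4.3.3, with factors for diploidy, cis, local trans, hybrid B and spore B, and SK1 frequencies of spore pool A smoothed with locfit 1.5.9.12 (window of 28000 bp, positions with at least 10 reads, degree 1) after the mean bias of the hybrids was subtracted. Transcripts were kept with 1 or more reads for both alleles and corrected counts averaging 10 or more. A call required a fold above 1.5 at a false discovery rate (Benjamini-Hochberg) under 0.2. Total expression was tested on summed alleles of the same transcripts. The code was tested on simulated data. Alternatives were DESeq2 1.42.0, other filters, thresholds and allele frequencies, left-out libraries, a replicate block and, chosen after seeing the data, lanes alone.

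The 10 genes and the gene lists were chosen with earlier results of these data known. Named were all 10 genes, called members of the lists, and RGT1, MTH1, STD1, MIG1 and HXK2. Sequences came from RefSeq R64 and were aligned with Biopython 1.88. A and B were not treated as pairs in the main fits. The correlation of their deviations between hybrids and pools was 0.01, so no shared shift was seen. Such a correlation cannot tell whether a hybrid and a pool of the same letter shared an origin. The list of hexose and glucose kinases held 1 measured gene, HXK2.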

Additional observations from a re-analysis of the deposited data

How the results depend on the processing

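With 2 libraries a group, 2 residual degrees of freedom and corrected counts of 40.6 to 584 per allele and library at SNF3, HXT4 and HXT5, only large effects could be seen there. The size factors of DESeq2 changed no count of calls beyond 1.5 times. Of 399 other values of single genes, 371 kept direction and call, 5 gained a call and 23 turned, the cause of which was not tested. HXT6 and HXT7 as 1 row was not run, since neither has a row.

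For all transcripts, a false discovery rate under 0.05 gave 442 (cis), 387 (pool ratio), 6 (local trans) and 35 (total) calls against 775, 686, 11 and 76. Own DNA for each pool gave 68, 42 and 0 in the first 3, and no library terms gave 344, 253 and 2. No frequency correction gave 171 local trans calls, no filter 7, and DESeq2 57 with 261 in total expression. Lane 8 alone gave 446 (pool ratio) and 40 (total). Leaving out 1 library gave 412 to 818 for the pool ratio (412 without spore pool A), 9 to 47 for local trans (47 without hybrid A, 23 without hybrid B) and 41 to 880 for total expression (41 without hybrid B, 783 without spore pool A, 880 without spore pool B). The replicate block gave 117 calls in total expression, 0 of them among the 7 genes. A and B are not known to pair the libraries.

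Among the 7 genes, lanes 6 and 7 called 1 cis effect against 0. At any fold 2 passed in cis, 1 in lanes 6 and 7, 0 with own DNA, 0 without library terms, and 1 to 2 with a library left out. In the pool ratio 0 were called, 1 by DESeq2, and 0 to 1 with a library left out. At any fold 1 passed, 2 by DESeq2, 0 at 0.05, 0 with own DNA, 0 without library terms, 0 in lane 8, and 0 to 1 with a library left out. In total expression 0 were called and 1 by DESeq2 under either rule, and 0 to 1 with a library left out.

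These log2 values turned. Leaving out 1 library, cis effects ran from -0.31 to 0.017 (HXT2), from -1.05 to 1.41 (HXT5) and from -0.67 to 0.13 (SNF3), pool ratios from -0.018 to 0.10 (HXT2) and from -0.018 to 0.11 (HXT3), local trans effects from -0.36 to 0.34 (HXT4) and from -1.24 to 0.0039 (SNF3), and total expression from -0.36 to 0.068 (HXT1), from -0.63 to 0.39 (HXT4) and from -0.84 to 0.23 (HXT5). With own DNA, SNF3 local trans was 0.57 and its pool ratio 0.30. The window of 56000 bp gave HXT2 a pool ratio of -0.014, and no library terms gave HXT5 a cis effect of -0.26. In lanes 6 and 7, HXT2 had a local trans effect of -0.45, a pool ratio of -0.47 and a total of -0.078, HXT3 a pool ratio of -0.022 and RGT2 a cis effect of -0.028. In lane 8, HXT4 had a cis effect of 0.032 and a total of 0.54.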
